A study of Mus musculus with 27 samples.

Results

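The comparison described here sets RNA recovered with an antibody against HuR beside total RNA in unstimulated mouse macrophages, and its members are the 4 anti-HuR immunoprecipitation (RIP) and 4 total RNA libraries of the vehicle group, 8 of the 27 libraries of the series. The libraries were taken by their labels: antibody or total RNA, and treatment with DMSO, the solvent of the compound used elsewhere in the series. The study asked how HuR and the response of macrophages to LPS, a bacterial cell wall component, are altered by a tanshinone mimic, TM7nox. Its other libraries received LPS with DMSO or LPS with TM7nox. All cells were RAW264.7, a single established mouse macrophage-like line, harvested after 6 h. For RIP, cells were lysed in a mild detergent, the lysate was cleared by centrifugation and RNA was taken from the antibody beads. Total RNA was taken from cell pellets, so the 2 arms also differ in how the cells were opened. Libraries were made from 7 ng of RNA with a stranded random-primed kit that does not select poly(A) RNA. One control IgG library exists for DMSO, with replicate number 3, and is given as an untested background. The labels do not state that the replicates came from separate cultures, so p-values measure only the spread between these libraries, which may be technical.

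HuR, encoded by Elavl1, is a ubiquitous RNA-binding protein of the ELAV family that recognises U-rich and AU-rich stretches, mostly in 3′ untranslated regions (3′ UTRs) and introns. It shuttles between nucleus and cytoplasm and is best known for protecting short-lived mRNAs of cytokines, growth factors and cell-cycle regulators from decay, and it also acts in splicing and translation. In macrophages it meets proteins that bind the same class of element and promote decay, such as tristetraprolin (Zfp36). A RIP without crosslinking recovers RNA held by HuR complexes, together with RNA that sticks to beads.

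Total counts were 31320449, 30628015, 35143212 and 20704663 in RIP replicates 1 to 4 and 2728534, 27543656, 19995766 and 21255139 in total RNA, with 21172511 in the IgG library. The first total RNA library is the shallowest of the 8. Across genes, log-scale values correlated at 0.972 to 0.986 within RIP, at 0.936 to 0.988 within total RNA and at 0.788 to 0.857 between the arms. The 10 macrophage markers, among them Lyz2, Csf1r and Cd68, summed to 5353 to 6427 CPM (counts scaled to the size of each library) in total RNA. Of 17 markers of fibroblast, epithelial, endothelial, lymphoid and other cells, 16 stayed under 1 CPM in every one of the 8 libraries and 3 had no count at all, and their sum was 0.252 to 1.93 CPM in total RNA and 0.873 to 1.80 CPM in RIP. All CPM are scaled by the trimmed mean of M values (TMM) over all 27 libraries, while log2 values and folds come from the fit over 24 libraries with their own TMM factors, so a log2 ratio of printed CPM differs from the fitted log2 by about -0.13. They are relative to the rest of a library and give no absolute amount of RNA, and in bulk libraries more cells with an RNA and more RNA per cell cannot be told apart.

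Before the values, the stretches below show the kind of sequence at issue, as letters of the genome (T for U) in build GRCm39. Each is the 30-base window with the most bases in runs of 5 or more T (for Tnf, in ATTTA) within the 3′ UTR of the gene's canonical GENCODE transcript, with those bases in capitals. Ties went to the window with most T, and the 3′ UTRs of Eno1 and Gapdh hold no such run, so theirs are the windows with most T and have no capitals. The first 6 genes were among the most recovered or most abundant RNAs in RIP, Tnf is the classic AU-rich cytokine mRNA, and the last 3 were low in RIP.
St3gal4, chr9:34957883-34957912, minus strand: ttgtaaaagaccattaaaataTTTTTTTTT
Med18, chr4:132186181-132186210, minus strand: TTTTTTTTTTTTTgTTTTTTTTTTgTTTTT
B4galt5, chr2:167142705-167142734, minus strand: TTTTTTTTTTTggtggTTTTTTTTTTTTTT
Gnb1, chr4:155642541-155642570, plus strand: TTTTTTTTTTTTTTTTTTTTTTTTTTTTgt
Elavl1, chr8:4339541-4339570, minus strand: TTTTTTTTTTccttttcTTTTTTcTTTTTT
Actb, chr5:142889405-142889434, minus strand: gTTTTTTTTTTTTTTTTTTTTTTTTTTTTT
Tnf, chr17:35418654-35418683, minus strand: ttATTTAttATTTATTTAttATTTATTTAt
Hspa5, chr2:34668661-34668690, plus strand: tttcTTTTTcTTTTTTTacTTTTTTTTTTT
Eno1, chr4:150333176-150333205, plus strand: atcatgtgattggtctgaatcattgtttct
Gapdh, chr6:125138827-125138856, minus strand: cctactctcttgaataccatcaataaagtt
At least one TTTTT, on the transcript strand and within any longer run, was found in 81.2% of the 10975 3′ UTRs of tested coding genes, and at least one ATTTA in 73.5%, so the presence of either is common. A window with at least as many T-run bases as the one of Actb (29 of 30) was found in 0.656% of these 3′ UTRs, one as dense as that of Elavl1 (22) in 6.13%, and one as dense as that of St3gal4 (9) in 47.9%. The ATTTA window of Tnf (23 bases in overlapping ATTTA copies) was matched in 0.137%. The window of Hspa5 (23) was matched in 5.15%, although this mRNA was among the lowest in RIP. No TTTTT occurred in the 3′ UTRs of Eno1 and Gapdh.

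Recovery with anti-HuR divided the transcriptome. Of 14311 genes tested with edgeR's quasi-likelihood test, 10075 (70.4%) were called at a false discovery rate under 0.05 after Benjamini-Hochberg adjustment: 5300 (37%) were higher in RIP than in total RNA and 4775 (33.4%) were lower. A change of at least 1 on the log2 scale, which is a doubling, was reached by 4562 genes (31.9%) in the higher and 3185 (22.3%) in the lower direction. The 4 RIP libraries all lay above the 4 total RNA libraries for 32.7% of genes and all below for 30.5%. The higher side had the longer tail: 3192 genes reached a log2 of 2, 1823 a log2 of 3, 755 a log2 of 4 and 223 a log2 of 5. The lower side had 631 at -2 or lower, 34 at -3 or lower and 8 at -4 or lower. Coding genes were 1763 of those at a log2 of 2 and 305 of those at 4. Scarce noncoding loci can pass the filter on low counts through the RIP libraries alone. The median log2 over all genes was 0.04. With library sizes alone and no TMM factor it was -0.72, a shift of about -0.76. The split of calls then was 3776 higher and 7113 lower, 34.7% of calls higher against 52.6%, so directions below are relative to the median gene.

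The 11244 protein-coding genes had a median log2 of -0.19, with a 10th percentile of -1.62 and a 90th percentile of 2.68. The IgG library showed no such spread: its log2 ratio to total RNA over the same genes had a median of -0.06, with 10th and 90th percentiles of -0.57 and 0.46. Of the 2865 coding genes called higher with a log2 of at least 1, 2691 (93.9%) had an IgG value below all 4 RIP libraries, beside 37.1% of all tested genes. As these genes were picked for high RIP values, the first share is a description only. The 1763 coding genes called higher with a log2 of at least 2 held 64.7 ± 1.34% of RIP counts and 9.63 ± 0.930% of total RNA counts (mean ± SD, n = 4 each), and 18.5% of IgG counts. That IgG share fell to 9.72% without 3 genes picked out after their values were seen, which encode the related ubiquitin ligases Wwp2, Itch and Wwp1. Wwp2 stood at 1266, 1242, 2362 and 1503 CPM in RIP, at 99.7, 52.3, 64.7 and 57.3 in total RNA and at 35527 in IgG, where it took 6.45% of counts. Itch stood at 10288 and Wwp1 at 2694 CPM in IgG. These 3 are therefore called higher in RIP, but lie far higher with the control antibody.

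**Figure D1:**
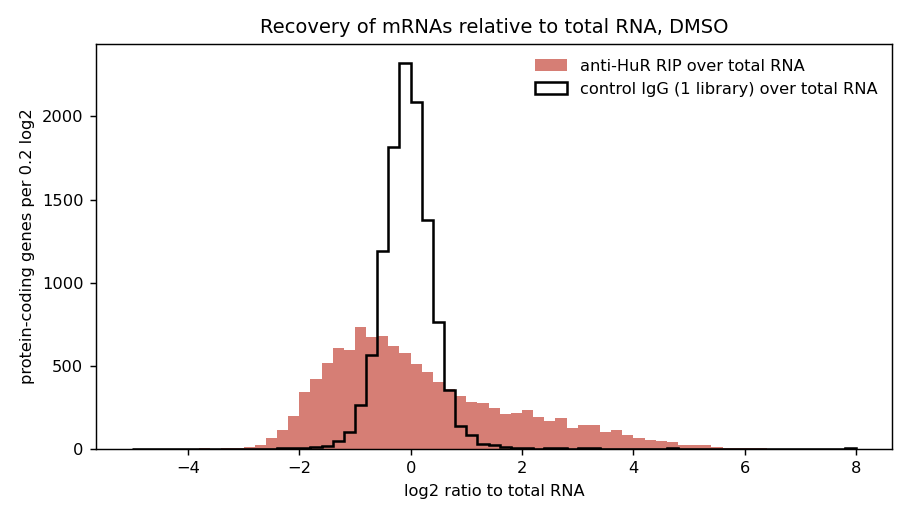
Histogram of the log2 ratio to total RNA for protein-coding genes tested (horizontal axis, bins of 0.2; vertical axis, genes), for anti-HuR RIP (filled, fitted over 4 libraries per arm) and for the single control IgG library (line). The RIP ratios spread from -1.62 at the 10th to 2.68 at the 90th percentile, while the same percentiles of the IgG ratios are -0.57 and 0.46.

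Among coding genes called with a mean of at least 5 CPM, no overlap between the groups and no predicted symbol, the 12 with the largest log2 changes included enzymes, an F-box protein and a transcription factor. St3gal4, a sialyltransferase of the Golgi, led with a log2 of 6.35 (SE 0.27), an 81.6-fold difference (adjusted p = 4.63e-16). Its 4 RIP libraries stood at 730.2, 753, 771 and 729.9 CPM and its 4 total RNA libraries at 9.20, 9.20, 13.1 and 8.03, with 6.73 in IgG. Every RIP library was thus far above every total RNA library, and IgG lay below the total RNA range. Med18, a subunit of the Mediator head, stood at 318, 307, 399 and 335 CPM in RIP and 2.14, 5.17, 6.55 and 5.46 in total RNA (log2 6.15 (SE 0.25), adjusted p = 2.33e-16), with IgG at 6.01. B4galt5, a galactosyltransferase that makes lactosylceramide, stood at 1752, 2181, 2514 and 3609 CPM in RIP and 51.1, 45.3, 56.4 and 42.2 in total RNA (log2 5.82 (SE 0.38), adjusted p = 1.07e-12), with IgG at 42.8. All these genes had groups that did not overlap, as the rule for naming them required. The other 9 were Pabpn1, the nuclear poly(A)-binding protein (6.28, and 5.37 without RIP replicate 4), Frat1, an inhibitor of GSK3 in Wnt signalling (6.01), Fbxl14, an F-box protein (5.73), the tetraspanin Tspan5 (5.70), Tmem243 (5.70), Arl2bp, a partner of the small GTPase Arl2 (5.63), Lyrm4 of iron-sulfur cluster assembly (5.60), the helix-loop-helix factor Tfap4 (5.57) and Get1, which inserts tail-anchored membrane proteins (5.53).

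Under the same limits, the 12 lowest coding genes included ER chaperones, ribosomal proteins and parts of the respiratory chain. Hspa5, the ER chaperone BiP, stood at 122, 104, 148 and 130.4 CPM in RIP and 1089.6, 865, 1064 and 1077 in total RNA, a 7.43-fold deficit (log2 -2.89 (SE 0.27), adjusted p = 7.85e-10), while IgG held 1096. Hsp90b1, its partner GRP94, stood at 79.7, 79.8, 79.1 and 77.3 in RIP and 582, 589, 522 and 632 in total RNA (log2 -2.75 (SE 0.20), adjusted p = 4.93e-12), with IgG at 479. For both, the RIP libraries lay far below all other libraries, IgG included. Rps26, of the small ribosomal subunit, stood at 80.0, 62.4, 80.4 and 72.2 CPM in RIP and 807, 534, 512 and 447 in total RNA (log2 -2.82 (SE 0.18), adjusted p = 6.25e-13), with IgG at 293, below total RNA but above RIP. The remaining 9 were the ribosome biogenesis factor Rbis (-3.06), the ER proteins Fkbp11 (-2.92) and Os9 (-2.89), the complex I proteins Ndufc2 (-2.77), Ndufa5 (-2.75) and Dmac1, an assembly factor (-2.72), Atp5md of ATP synthase (-2.71), cathepsin F (Ctsf, -2.76) and Rpl34 (-2.70).

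**Figure D2:**
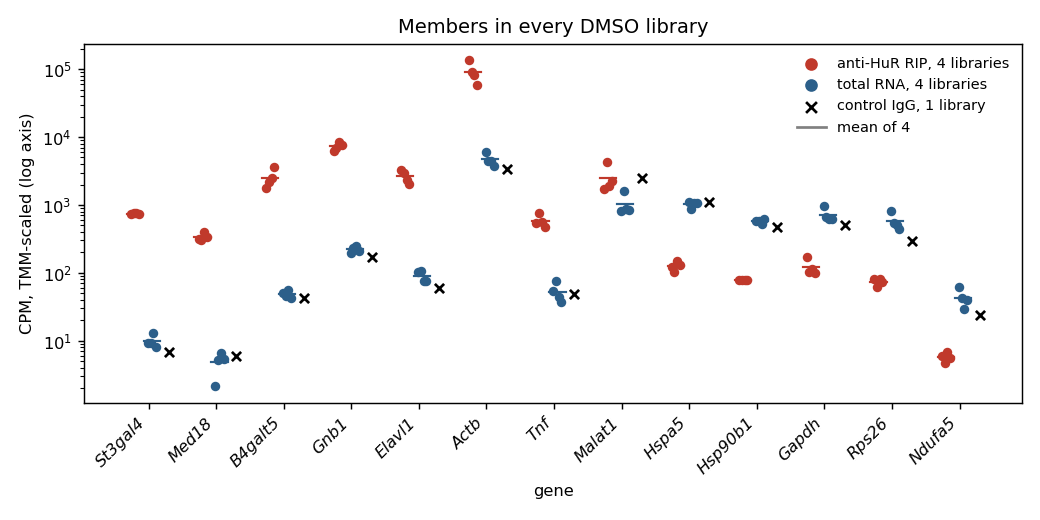
CPM (log axis) of 13 genes in each of the 4 anti-HuR RIP libraries (red points), the 4 total RNA libraries (blue points) and the IgG library (cross), with a line at each mean of 4. From St3gal4 to Tnf the RIP points lie above the total RNA points and the cross lies with total RNA; for Malat1 the cross lies within the RIP range; from Hspa5 to Ndufa5 the RIP points lie below.

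A few mRNAs took up much of the RIP. Actb, which encodes beta-actin, reached 134813, 90523, 81506 and 58981 CPM in RIP against 6063, 4459, 4429 and 3751 in total RNA (log2 4.43 (SE 0.26), adjusted p = 1.13e-13), with 3404 in IgG. As a share of all counts this was a mean of 8.76% of RIP and 0.722 ± 0.220% of total RNA, and 0.618% of IgG. RIP replicates differed among themselves, from 5.78 to 12.8%. Other large shares belonged to Pfn1, profilin 1 (1.34%, log2 4.82), BC005537 (1.23%, 4.74), Ptma, prothymosin alpha (0.907%, 3.22), Ywhaz, a phosphoserine-binding adaptor (0.843%, 4.60), Gnb1, a G protein beta subunit (0.702%, 5.17), Mbnl1, a splicing regulator (0.699%, 4.27), calnexin (Canx, 0.692%, 3.46) and the co-chaperone Ptges3 (0.568%, 4.54). Per kilobase of exon, the level in RIP was 31288 CPM for Actb and 3222 for Pfn1. The 10 coding genes with most RIP counts held 13.6 to 20.5% of the counts of a RIP library. The same genes held at most 1.75% of those of a total RNA library. As they were picked for their RIP counts, this difference is a description only.

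Messages for proteins that themselves bind AU-rich elements stood out by their counts. Of 28 tested, 20 were called higher and 4 lower, against 37% and 33.4% of all genes, with a median log2 of 1.85 beside 0.04 for all genes. Elavl1, the message of HuR itself, stood at 3223, 2962, 2324 and 2042 CPM in RIP and 103, 108, 76.1 and 75.1 in total RNA (log2 5.00 (SE 0.25), adjusted p = 5.76e-15), with 60.7 in IgG, and its groups were wide apart. Msi2, a Musashi protein, had a log2 of 5.01 (626 ± 155 against 21.1 ± 0.343 CPM). Zfp36, the decay-promoting tristetraprolin, was modestly higher (log2 0.76 (SE 0.23), adjusted p = 0.00535, 50.3 ± 13.6 against 33.6 ± 15.8 CPM), but not with the 8 DMSO libraries alone (adjusted p = 0.0730), and at -0.09 without TMM factors. Ptbp1, which binds pyrimidine tracts, and Hnrnpdl, a relative of AUF1, were lower, at -1.43 and -1.10, as was nucleolin (Ncl, -1.10), and Ybx1 (-0.42) was lower but lost its call without RIP replicate 2 (-0.38, adjusted p = 0.0533), with DESeq2 (0.0952), with DESeq2 size factors (0.129) and with replicates 1 and 2 or 3 and 4 alone (0.0512 and 0.133). A list of mRNAs reported elsewhere as HuR targets or as AU-rich had 24 members higher and 9 lower of 44 tested and a median of 1.25. Its lower members included cytochrome c (Cycs, -2.14) and Ncl, the latter at 979.8 ± 102 CPM in RIP against 2289 ± 376 in total RNA.

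Of the hnRNP and SR splicing factor genes, 16 were called higher and 5 lower of 30, with a median of 0.58. Srsf9, an SR protein, reached 2892 ± 761 CPM against 79.4 ± 4.72 (log2 5.32) and Hnrnpl 2712 ± 282 against 133 ± 16.8 (4.47), while Hnrnpm was lower (-0.81) with Hnrnpdl, Hnrnpr (-0.71), Hnrnpa2b1 (-0.52) and Hnrnpll (-0.50, which lost its call without RIP replicate 1 at -0.43 with adjusted p = 0.0565, with DESeq2 at 0.0713 and with its size factors at 0.0723). Core spliceosome genes went the other way, with 8 higher and 25 lower of 42 and a median of -0.95. The Sm proteins Snrpd2 (-2.02) and Snrpb (-1.90) were lowest and Prpf39, a U1-associated factor, highest (3.65). Deadenylation, decapping and decay genes were mixed, with 22 higher and 18 lower of 45. Pan3, of a deadenylase, was at 5.30, whereas the decapping scaffold Edc4 was lower (9.99 ± 1.59 against 44.4 ± 10.2 CPM) and the exosome subunit Exosc3 at -2.23. The m6A factors gave 9 higher and 5 lower of 16, from Wtap (4.57) and the eraser Alkbh5 (4.24) to the other eraser Fto (-1.32) and 4 parts of the writer complex, Virma (-1.11), Mettl14 (-0.99), Zc3h13 (-0.88) and Mettl3 (-0.56). In the microRNA pathway 7 were higher and 3 lower of 13, with the effectors Ago2 (3.03) and Tnrc6b (2.91) high. The nuclear export receptor Xpo5 (-1.75), the nuclear processing enzyme Drosha (-1.01) and Prkra (-1.22) were low. 

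Of 33 cytokine messages tested, the usual examples of AU-rich mRNAs, 8 were called higher (24.2%) and 7 lower (21.2%). Of all coding genes, 31.9% were higher and 38.6% lower. The other 18 cytokine messages were not called, and the median of the list was 0.49. Tnf stood at 534, 749, 556 and 467 CPM in RIP and 54.6, 75.1, 44.0 and 36.9 in total RNA, with no overlap (log2 3.58 (SE 0.34), adjusted p = 9.43e-10), and at 48.3 in IgG. The chemokine Ccl4 had a log2 of 3.74 (617 ± 379.6 against 49.7 ± 31.2 CPM). Mif, a constitutive cytokine, was at -2.42 (54.7 ± 8.32 against 312 ± 114 CPM) and Tgfb1 at -1.08. Toll-like receptor and NF-kB pathway genes gave 9 higher and 15 lower of 40 and a median of -0.24, beside 31.9% higher, 38.6% lower and a median of -0.19 for all coding genes: the kinase Irak2 (2.93) and the receptor Tlr4 (2.10) were higher, the LPS co-receptor Cd14 (-2.17) and the inhibitor Nfkbib (-1.33) lower. MAP kinases and their phosphatases had 13 higher and 4 lower of 27, from Dusp7 (4.61) to Mapk3, which encodes ERK1 (-1.03), Map2k2 (-0.97), Map2k4 (-0.73) and Dusp2 (-0.82). Dusp2 did not pass without RIP replicate 3 or 4 or total RNA replicate 1 or 2 (adjusted p from 0.0604 to 0.141), with the 8 libraries alone (0.0766) or with DESeq2 size factors (0.0984).

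Among immediate-early factors 8 were higher (40%) and 4 lower (20%) of 20, beside 31.9% and 38.6% of all coding genes. Jund (3.25) and Klf6 (2.39) led and the lower ones were Ier5 (-1.31), Atf3 (-1.25), Ier2 (-1.23) and Junb (-1.22). Atf3 did not pass without RIP replicate 1 (-1.10, adjusted p = 0.0592). Fos stood at 214, 144, 120.1 and 98.2 CPM in RIP and 57.6, 38.4, 24.3 and 27.1 in total RNA (log2 2.14 (SE 0.33), adjusted p = 3.48e-06). Myc stood at 70.5, 20.5, 4.21 and 2.22 in RIP and 19.9, 5.50, 1.21 and 1.10 in total RNA (log2 2.32 (SE 0.90), adjusted p = 0.0248). Its groups overlapped, but within each of the 4 same-numbered pairs RIP was higher, and with the replicate number as a block the log2 was 1.97 (adjusted p = 0.000118). Without the block it did not pass with the 8 libraries alone (adjusted p = 0.0956), with DESeq2 (0.0522), without TMM factors (0.167) or without RIP replicate 1 (log2 0.90, adjusted p = 0.346; 3.25 without total RNA replicate 1) or total RNA replicate 3 or 4 (0.0806). Of 20 macrophage lineage transcription factor genes 9 were higher and 4 lower: Cebpb (5.33, 796 ± 337 against 22.8 ± 13.3 CPM) and Runx1 (4.77) were high, while Spi1, which encodes PU.1 (-0.91), Stat6 (-1.45), Bcl6 (-0.64) and Irf5 (-0.53) were low, Bcl6 not without total RNA replicate 2 (-0.49, adjusted p = 0.0563). Interferon-stimulated genes were mostly lower, with 2 higher and 20 lower of 35 and a median of -0.71, among them Rsad2 (1.09), which was higher, and Ifi35 (-1.94). Without RIP replicate 1 Rsad2 did not pass (0.78, adjusted p = 0.0568), nor without TMM factors (0.24, adjusted p = 0.534).

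Rab GTPases of vesicle traffic gave 21 higher and 10 lower of 44 with a median of 0.48. Rab21 (4.17) and Rab11b (3.71) were the highest, and Rab9 (-1.28) was lower. The cytoskeleton lists were not carried by Actb and Pfn1: of 46 actin genes 17 were higher and 23 lower, median -0.39, down to Tmsb10 (-2.46) and Myl6 (-2.17). Of 20 tubulin and microtubule genes 3 were higher and 15 lower, median -1.53. Tubb5 was higher (1.69, 1909.5 ± 162 against 648 ± 57.7 CPM) with Dynll1 (1.34) and Mapre1 (0.52), and its paralog Tubb4b was lower (-2.24, 36.9 ± 4.43 against 189 ± 16.3). Without TMM factors Dynll1 (adjusted p = 0.0630) and Mapre1 (0.0997) lost their call, and Mapre1 also without the filter on low counts (0.326).

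Chromatin regulators gave 29 higher and 13 lower of 48, median 0.89, led by the acetyltransferase Crebbp (2519.6 ± 217 against 142 ± 11.7 CPM, 4.27) and the demethylase Kdm6b (4.01), with Hdac1 (-1.59) and Ezh2 (-1.31) lowest. Cullin and F-box genes gave 28 higher and 11 lower of 60, median 0.87, from Fbxl14 and Fbxw7 (3.44) to Cul2 (-1.70). Ubiquitin and E2 enzyme genes gave 18 higher and 7 lower of 36, with Ube2w (4.42) high and the ubiquitin gene Ubb (-2.08) low. Zinc finger genes named Zfp, mostly DNA-binding factors, gave 111 higher and 40 lower of 282, median 0.23. That was 39.4% higher and 14.2% lower, beside 31.9% and 38.6% of all coding genes. Cyclins and CDK inhibitors gave 10 higher and 6 lower of 23, from a highest log2 of 4.75 to Ccnh (-1.62). Ccni (4.51) and the inhibitor Cdkn2c (4.05) were also high. The machinery of the cell cycle was lower: DNA replication genes gave 2 higher and 34 lower of 40, median -1.30, and mitotic spindle and kinetochore genes 2 higher and 22 lower of 32, median -1.17. Mcm6 of the replicative helicase fell from 186 ± 18.4 CPM in total RNA to 41.9 ± 6.40 in RIP (-2.03), while Rpa3, the smallest subunit of replication protein A (2.63), and Orc6 of the origin recognition complex (2.07) were higher, as were the mitotic genes Knl1 (1.84) and Ect2 (0.90, but 0.11 with adjusted p = 0.688 without TMM factors).

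The housekeeping lists were lower almost throughout. Cytosolic ribosomal protein genes gave 77 lower and 1 higher of 80, median -1.86. The higher one was Rpl24 (3.09), barely detected at 0.930 ± 0.149 against 0.0917 ± 0.103 CPM (3.84 without total RNA replicate 4), and Rpl10a (0.23) did not pass the test. Rpl37a (-0.55, adjusted p = 0.0469) passed narrowly and did not pass with DESeq2 or without RIP replicate 1 or 2 or total RNA replicate 2 or 4, where adjusted p ran from 0.103 to 0.158, nor with DESeq2 size factors (0.120). Nuclear-encoded oxidative phosphorylation genes gave 78 lower and 2 higher of 83, median -1.89, with Atp5l (1.79) and the barely detected Ndufb2 (1.74, at 1.38 ± 0.362 against 0.372 ± 0.266 CPM) higher. Ndufb2 lost its call without TMM factors (adjusted p = 0.0821). Mitochondrial ribosomal protein genes gave 66 lower and 5 higher of 77, median -1.44. The 5 were Mrpl1 (1.91), Mrps18b (0.97), Mrpl32 (0.86), Mrpl51 (0.56) and Mrps10 (0.48, which did not pass without RIP replicate 3, at 0.36 with adjusted p = 0.0785). Of these, all but Mrpl1 lost their call without TMM factors (adjusted p from 0.140 to 0.697), and Mrpl51 (0.221) and Mrps10 (0.406) also did without the filter on low counts, and Mrps10 without mitochondrially encoded genes (0.0503). TCA cycle genes gave 19 lower of 20, median -1.80, with Fh1, fumarase (-2.22), among the lower. The single higher gene, Suclg2 (0.70), lost its call without the filter on low counts (0.48, adjusted p = 0.0610) and stood at -0.0779 without TMM factors (adjusted p = 0.598). Glycolysis genes gave 16 lower and 4 higher of 20, median -1.69. Gapdh stood at 172, 102, 113 and 99.7 CPM in RIP and 981, 654, 619 and 625 in total RNA (log2 -2.42 (SE 0.19), adjusted p = 2.12e-11), and Eno1 had a log2 of -2.52. The hexokinase Hk2 (2.03), the regulatory enzyme Pfkfb3 (1.82) and the glucose transporter Slc2a1 (1.44) were higher, with a second, barely detected gene named Aldoa (1.70, at 1.01 ± 0.184 against 0.280 ± 0.205 CPM), while the main Aldoa gene was lower (-2.05). Proteasome subunit genes gave 35 lower and 3 higher of 39, median -1.85, where Psmd11 was the highest (2.74, 595 ± 75.1 against 96.8 ± 9.31 CPM) ahead of Psmd9 (1.32) and Psmb2 (1.22, adjusted p = 0.0902 without TMM factors), and Psma5 the lowest (-2.48). Aminoacyl-tRNA synthetase genes gave 19 lower of 20, median -1.67. Dars (-0.24) was not called, but was without RIP replicate 3 (-0.37, adjusted p = 0.0445) or total RNA replicate 1 (-0.41, adjusted p = 0.0187).

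Protein folding and the secretory and lysosomal routes followed, each with single members far higher. Heat shock and chaperone genes gave 27 lower and 2 higher of 30, median -1.63. The 2 were calnexin, at 6199, 6659, 8759.7 and 7289 CPM in RIP and 622, 733, 705 and 794 in total RNA (adjusted p = 7.69e-15), and the disulfide isomerase Pdia4 (3.66, 2253 ± 641 against 192 ± 26.4 CPM), both ER proteins like Hspa5 and Hsp90b1. ER translocation and glycosylation genes gave 20 lower and 9 higher of 32, median -1.15, with the translocon protein Tram1 at 5025 ± 420.1 against 134 ± 27.9 CPM (5.34) and the oligosaccharyltransferase subunit Rpn1 at 89.4 ± 22.3 against 471 ± 66.9 (-2.27). Lysosomal genes gave 35 lower and 5 higher of 43, median -1.52, from cathepsin F (Ctsf, -2.76) and cathepsin L (Ctsl, -2.59) to Lamp2 (2.50), Ctsc (2.29), Lgmn (1.89), Asah1 (162 ± 24.6 against 61.9 ± 7.99 CPM) and Scarb2 (1.25). Translation factors gave 41 lower and 16 higher of 65, median -0.97: the cap-binding protein Eif4e was higher (871 ± 173 against 116 ± 12.2 CPM, 3.03) and Eef1d (-2.54) and Eif3l (-2.24) lower. The IgG medians of these lists ran from -0.44 for the ribosomal proteins and -0.39 for oxidative phosphorylation to 0.14 for the TCA cycle. Over all coding genes the IgG median was -0.06 and the 25th percentile -0.33. The ribosomal protein and oxidative phosphorylation lists were thus also low in IgG, though less than in RIP.

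None of the 10 macrophage markers was called higher and 9 were lower, median -1.65, and their summed level in RIP was 1195 to 1927 CPM, with 4508 in IgG. Lyz2, lysozyme, stood at 1153, 746, 704 and 681 CPM in RIP and 3055, 4294, 3998 and 3990.1 in total RNA (log2 -2.10 (SE 0.35), adjusted p = 7.62e-06). Phagocytic receptor and integrin genes gave 16 lower and 5 higher of 27, median -0.94. Adgre1, which encodes F4/80 (-2.20), and the integrin Itgb2 (-2.12) were among the lower, and the hyaluronan receptor Cd44 was highest, at 7036, 5402, 2864 and 2384 CPM in RIP and 489, 384, 189 and 178 in total RNA (log2 4.00 (SE 0.33), adjusted p = 9.90e-11). The other 4 higher genes were Itgav (3.18), Fcgr4 (3.11), Cd36 (1.53) and Itgb1 (1.37). Without RIP replicate 1, Fcgr4 was at 2.18 and Cd36 at 0.69 (adjusted p = 0.306). Cd36 also did not pass without total RNA replicate 2, 3 or 4 (adjusted p from 0.0501 to 0.0961), with 2.17 without total RNA replicate 1. It further lost its call with DESeq2 (0.0631), the 8 DMSO libraries alone (0.0932), upper quartile scaling (0.0587), mitochondrial genes left out (0.0667) and no TMM factors (0.417). Antigen presentation genes gave 14 lower and 4 higher of 22, median -0.93, with the loading factor Tapbp (2.99) and the transporter Tap1 (-2.15) far apart and Cd80 (1.95), H2-K1 (1.21) and Nlrc5 (0.70) also higher. Nlrc5 lost its call without the filter on low counts (adjusted p = 0.0635) and without TMM factors (0.750).

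Metabolic and stress lists were mixed. Nrf2 and iron genes gave 9 higher and 17 lower of 30, from Gsr, glutathione reductase (2077 ± 192 against 86.6 ± 2.29 CPM, 4.71), and the mitochondrial superoxide dismutase Sod2 (3.66) to thioredoxin (Txn1, -2.26). Sterol and fatty acid synthesis genes gave 10 higher and 14 lower of 30, with the sensor Insig1 (3.72) and Sc5d (3.51) high and Fasn (-1.78) and Fdft1 (-1.90) low. Apoptosis and pyroptosis genes gave 13 higher and 16 lower of 36, from the caspase inhibitor Cflar (3.92) and Casp2 (3.71) to Casp1 (-1.88) and cytochrome c, which triggers caspase activation when released (-2.14). Solute carriers gave 72 higher (38.5%) and 56 lower (29.9%) of 187, and nuclear pore and transport genes 16 higher and 20 lower of 41. Of all coding genes, 31.9% were higher and 38.6% lower. Medians of the sterol and solute carrier lists were 0.04 and -0.03. Leaving out TMM factors lowered the medians of the 50 lists by unequal amounts, with shifts from -0.85 to -0.59 beside -0.76 for all genes, and 13 of them fell from above 0 to below it. Relative to the median of all genes, the sterol list alone changed side under any of the 5 other scalings.

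**Figure D3:**
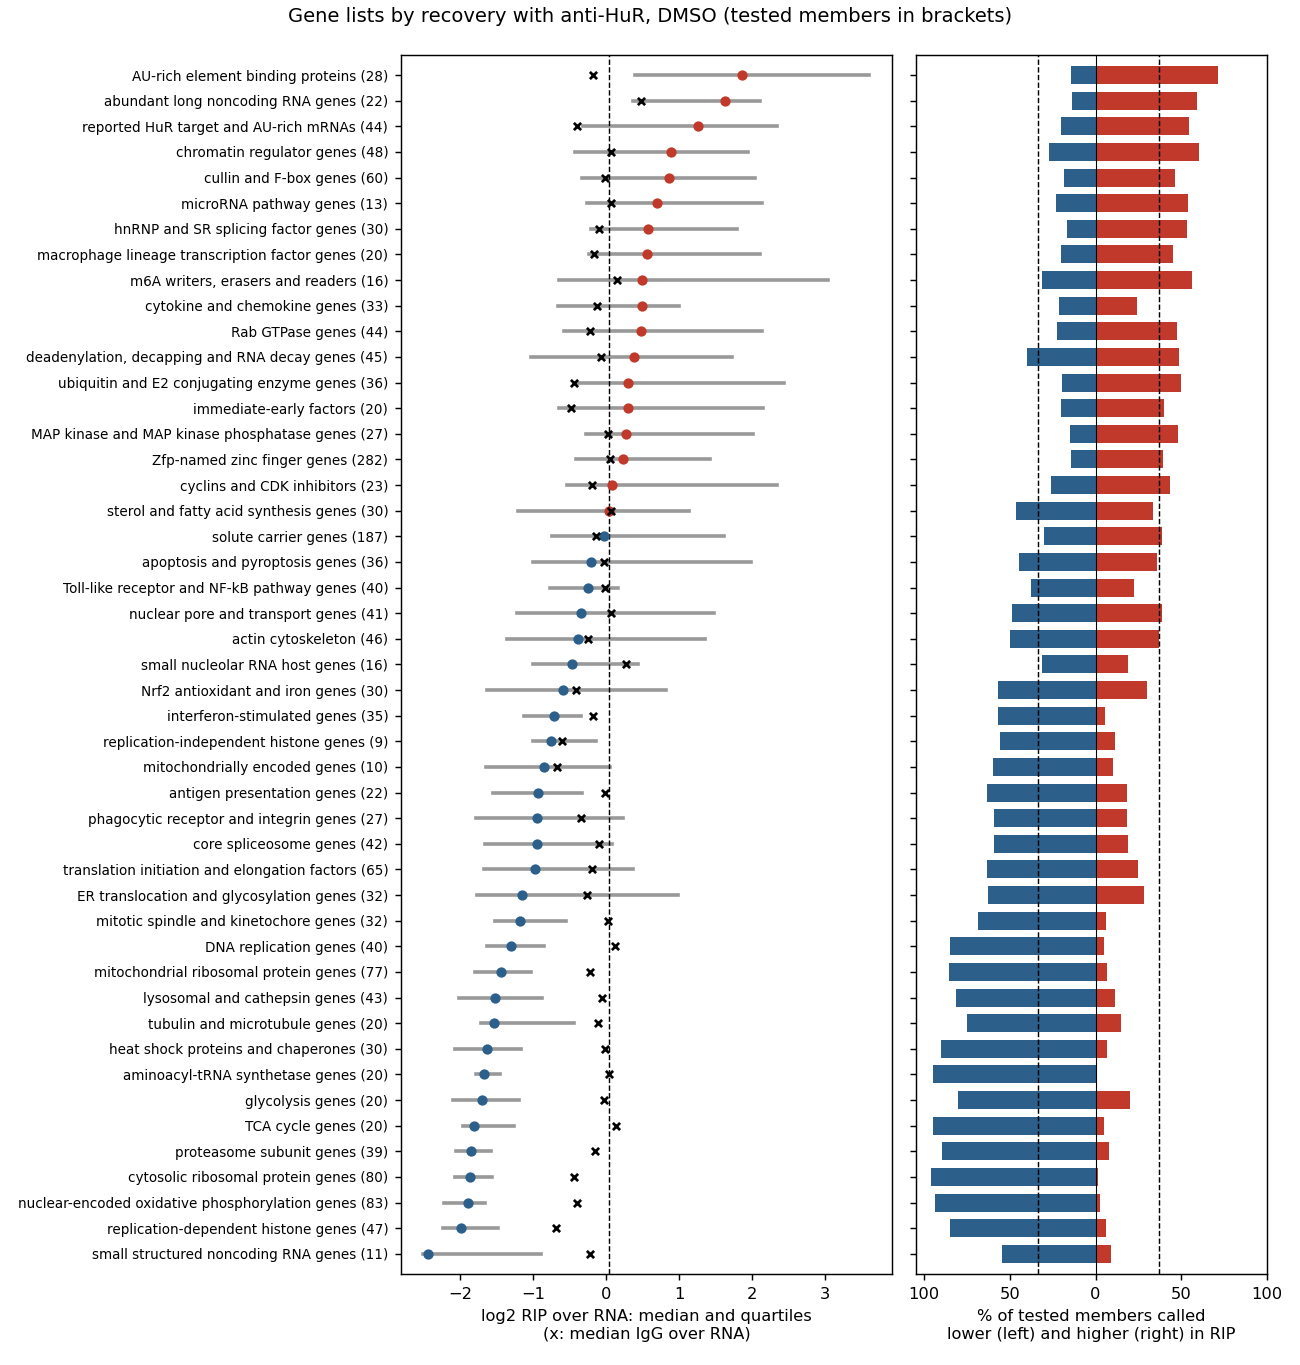
Left: median log2 RIP over total RNA of each list (point) with the quartiles of its tested members (bar), and the median IgG ratio (cross). Right: percent of tested members called lower (left) and higher (right); dashed lines give all genes tested (median 0.04; 33.4% lower, 37% higher). Cell type marker lists and 1 further list are not drawn. Medians run from 1.85 for AU-rich element binding proteins to -2.44 for small structured noncoding RNAs.

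Replication-dependent histone genes, whose mRNAs end in a stem-loop in place of a poly(A) tail, gave 40 lower and 3 higher of 47 with a median of -1.98, for example H4c8 (44.1 ± 8.49 against 275 ± 101 CPM, -2.54). The 3 higher were H2ac10 (3.94), H2bc21 (3.75) and H3c15 (3.71, 4.30 without total RNA replicate 2). These genes are near-identical copies, so counts of single members are uncertain. Replication-independent histones gave 5 lower and 1 higher of 9, median -0.75, and the IgG medians of the 2 lists were also low, at -0.69 and -0.60. H2az1 (-1.85), H3f3a (-0.99), H2az2 (-0.87), H2ax (-0.75) and H1f0 (-0.52) were lower, Macroh2a1 (0.64) higher, and H3f3b (0.09) was not called. Macroh2a1 lost its call without the filter on low counts (adjusted p = 0.127) and without TMM factors (0.385). H1f0 did not pass without RIP replicate 2 or total RNA replicate 3 or 4 (adjusted p from 0.0510 to 0.0956), with DESeq2 (0.0514) or with its size factors in edgeR (0.0601), nor H2az2 without RIP replicate 2 (-0.69, adjusted p = 0.0506).

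By transcript class, grouped from the table's biotypes, RIP counts lay almost wholly on mRNAs. The lncRNA class also took genes whose biotypes fit no other class. It held Ifi30 (log2 -2.14), for which GENCODE gives a coding sequence of 747 bases. Protein-coding genes took 95.5 ± 1.01% of RIP and 73.3 ± 6.27% of total RNA counts, and 87.7% of IgG counts. Mitochondrial rRNA made most of the difference, with 0.450 ± 0.219% in RIP and 17.3 ± 3.59% in total RNA, 38.3 times less, and 4.68% in IgG. The larger mitochondrial rRNA, mt-Rnr2, stood at 1693, 1849, 2752 and 4617 CPM in RIP and 46443, 90716, 98662 and 80441 in total RNA. Mitochondrial mRNAs fell less, from 1.97 ± 0.346% to 0.840 ± 0.151%, and their genes differed. Of the 7 tested, mt-Co1 (-0.99), mt-Cytb (-1.24) and mt-Nd2 (-0.71) were called lower, mt-Nd6, encoded on the opposite strand (0.89), was called higher, and the other 3, mt-Nd5 (0.10) among them, were not called. mt-Nd2 lost its call without RIP replicate 1 or 4 or total RNA replicate 2 (adjusted p from 0.0507 to 0.168), with DESeq2 (0.0761) and with its size factors (0.0854). The call of mt-Nd6 was lost without RIP replicate 3 or 4 or total RNA replicate 1, 3 or 4 (adjusted p from 0.0599 to 0.319, with a log2 of 0.40 without RIP replicate 4), with the 8 libraries alone (0.0709) and without TMM factors (0.708). The misc_RNA and ribozyme class, which holds 7SK and vault RNAs, fell from 0.552 ± 0.104% to 0.0700 ± 0.0161%, with 0.580% in IgG; 7SK (Rn7sk) stood at 557, 387, 490.1 and 574 CPM in RIP and 2499.6, 3649.9, 2648 and 3617 in total RNA, while IgG held 2674. Processed pseudogenes took 0.309 ± 0.0339% of RIP and 0.633 ± 0.166% of total RNA counts. Long noncoding RNAs rose from 0.470 ± 0.0636% to 0.668 ± 0.178% and TEC genes, predicted loci that still await experimental checking, from 0.0366 ± 0.00676% to 0.140 ± 0.0502%. IgG held more of the first (0.980%) and as much of the second (0.131%). For each of these classes, for mitochondrial tRNA and for Actb the 4 RIP shares did not overlap the 4 total RNA shares, and the exact two-sided permutation test gave p = 0.0286, the smallest it can give with 4 against 4 (adjusted over 17 classes, 0.0486). Sign flips of the 4 same-numbered pairs cannot go below 0.125. With mitochondrial genes left out of the totals, coding genes were 5.99 points higher (exact permutation p = 0.0571) and lncRNAs 0.0949 points higher (exact permutation p = 0.486), so neither passed. The lncRNA ranges nearly met, at 0.547 against 0.522%, and RIP replicate 2 was the highest. Without RIP replicate 2 the lncRNA difference was 0.111 points (exact permutation p = 0.0857), and without any 1 of the 4 total RNA libraries it was 0.172 to 0.216 points (exact permutation p from 0.0571 to 0.0857), close to the difference over all 8, and the groups still did not overlap.

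The other classes did not pass. Counts on miRNA genes, 1.44 ± 0.676% in RIP and 4.55 ± 3.76% in total RNA (exact permutation p = 0.171), lay almost wholly on 1 gene, Gm23935. Without total RNA replicate 1 the difference was -4.32 points (exact permutation p = 0.0286, not adjusted over classes), and without total RNA replicate 4 it was -1.47. Without Gm23935 the shares were 0.0279 and 0.0596%, and total RNA replicate 4 (0.119%, against 0.0305 to 0.0445% in the other 3) raised the latter. That difference did not pass (exact permutation p = 0.171) and was -0.0118 points without this library. The rRNA class (0.413 ± 0.214% against 1.01 ± 0.704%, exact permutation p = 0.171) was mostly CT010467.1, and its total RNA values ran from 0.383 to 1.81%. Spliceosomal snRNA took 0.0286 and 0.0321%, and snoRNA 0.0237 and 0.0225%, with more of both in IgG (0.0645 and 0.0785%). The mature microRNAs themselves are not described by these counts, since the libraries hold fragments of longer RNA.

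**Figure D4:**
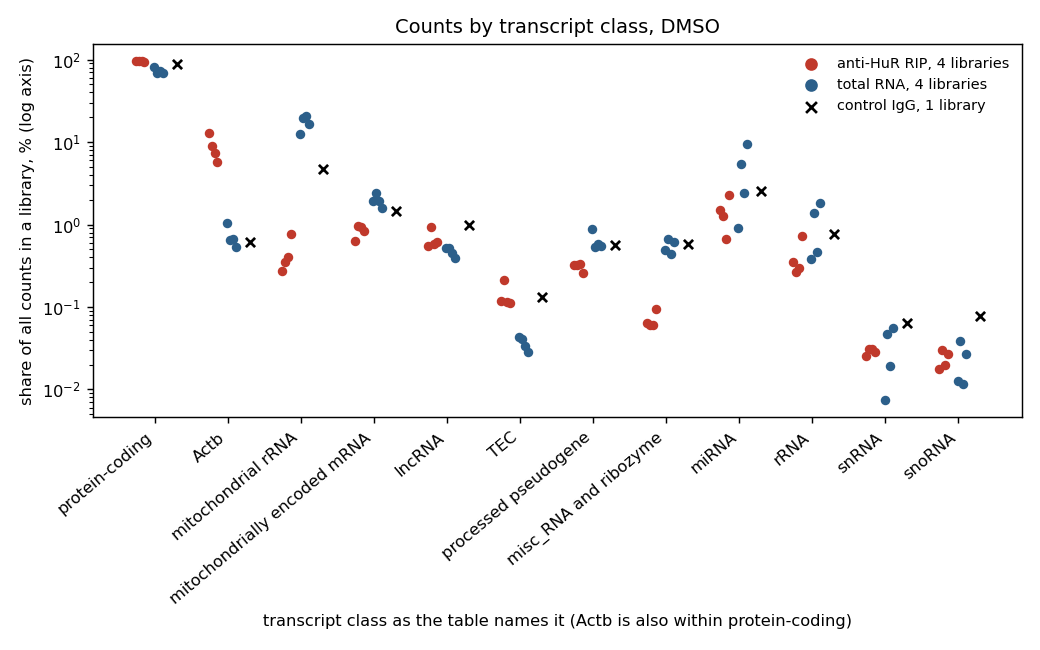
Share of all counts (percent, log axis) by transcript class in each of the 4 anti-HuR RIP (red), 4 total RNA (blue) and 1 IgG (cross) libraries; Actb is shown alone and within protein-coding. RIP points lie above total RNA for protein-coding, Actb, lncRNA and TEC and below for mitochondrial rRNA and mRNA, processed pseudogenes and misc_RNA; the cross lies above the RIP points for lncRNA, snRNA and snoRNA.

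Of 9939 genes classed as lncRNA and 3232 TEC genes, 1144 and 577 passed the filter on low counts, with medians of 1.93 and 3.03. Of these, 712 and 480 were called higher, and for 582 and 323 of them IgG lay below all 4 RIP libraries. A scarce locus can pass through the RIP libraries alone, so these shares are not read against those of coding genes. The IgG medians of the tested lncRNA and TEC genes were 0.16 and 0.60, drawn towards 0 for scarce loci by the 0.5 CPM added to these ratios. By position, TEC genes on the same strand as an overlapping coding gene had a median of 3.33 (IgG 0.73, 368 genes) and those that overlapped none 2.25 (IgG 0.36, 107 genes), and for lncRNA the medians were 2.80 (IgG 0.40, 149 genes) and 1.51 (IgG 0.10, 312 genes). Whether the counting kept to the strand is not given in the sources used here, and reads of a host gene's introns cannot be told apart from such loci. Among well-known lncRNAs 13 were higher (59.1%) and 3 lower (13.6%) of 22, beside 62.2% and 4.20% of all tested lncRNA genes. Their IgG median was 0.48, and IgG lay below all 4 RIP libraries for 8 of the 13. Firre, which holds repeats bound by nuclear proteins, had a log2 of 3.34 (56.9 ± 10.3 against 5.86 ± 1.35 CPM, IgG 13.6) and Ftx, of the X-inactivation centre, 2.68. Malat1, the abundant speckle RNA, stood at 1700.0, 4219.6, 1874 and 2227 CPM in RIP, 813, 1589, 878 and 844 in total RNA and 2515 in IgG, so its log2 of 1.41 (SE 0.30) (adjusted p = 1.99e-04) was matched by the control antibody. Neat1, the paraspeckle RNA, was at 131 ± 92.1 against 32.9 ± 13.7 CPM (log2 2.10), with IgG higher still at 292, and its log2 was 1.46 without RIP replicate 2. Of 16 snoRNA host genes tested, 3 were higher, 5 lower and 8 not called, with an IgG median of 0.27. Gas5 (-1.10), Snhg8 (-1.21) and Snhg5 (-0.96) were lower and Snhg1 (1.63) higher. Processed pseudogenes, intronless copies of mRNAs, gave 346 higher and 332 lower of 949 (36.5% and 35%), close to the shares of all genes. Ptges3-ps, a copy of the recovered Ptges3, was at 4.64, and reads of parent and copy cannot be told apart.

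Recovery shifted with 3′ UTR sequence, though genes of different classes overlapped widely. Quartiles of the log2 were -0.70 and 1.25 with 4 to 7 runs of at least 5 U, and -0.11 and 2.16 with 8 to 15. A 3′ UTR of at least 50 bases was found for 10975 of the 11244 coding genes. The median log2 rose with the number of runs of at least 5 U, from -0.98 with none (2068 genes) through -0.79 with 1, -0.44 with 2 or 3, 0.04 with 4 to 7 and 0.91 with 8 to 15, to 2.02 with 16 or more (814 genes). The share of genes called higher with a log2 of at least 1 went from 8.75% in the first class to 69.3% in the last. With AUUUA motifs the median went from -0.80 (none) to 1.03 (8 or more), with 3′ UTR length from -1.09 (under 250 bases) to 0.96 (4000 bases or more), and with the U share of the 3′ UTR from -0.96 (under 20%) to 0.58 (35 to 40%) and 0.30 above that. Medians of the IgG ratio stayed between -0.04 and -0.09 over all classes of U runs. The order held within classes of 3′ UTR length: among 3′ UTRs of 500 to under 1500 bases the median was -0.76 with 0 or 1 run (1334 genes) and 1.54 with 8 to 15 (182 genes), and among those of 3000 bases or more it was -0.83 with 0 or 1 (45 genes) and 1.91 with 16 or more (701 genes).

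AUUUA motifs gave smaller steps at equal length: between 500 and under 1500 bases the median was -0.63 with none (1019 genes) and 0.59 with 8 or more (28 genes). Coding length had no such order, with medians of -0.74 under 500 bases and -0.10 to -0.28 in the classes from 500 to under 4000 bases. As descriptions across genes, which share libraries and base composition, Spearman's rank correlation with the log2 ratio was 0.50 for U runs, 0.37 for 3′ UTR length, 0.36 for AUUUA, 0.27 for the U share, -0.22 for the GC content of the transcript and 0.08 for coding length. For the IgG ratio it was -0.04 for U runs and 0.41 for coding length. Of the genes printed above, St3gal4 has 3 U runs in 857 bases, Tnf has none but 8 AUUUA, and Hspa5, among the lowest, has 14 runs and 12 AUUUA in the 2755 bases of its annotated 3′ UTR. Which 3′ end these cells use was not tested.

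**Figure D5:**
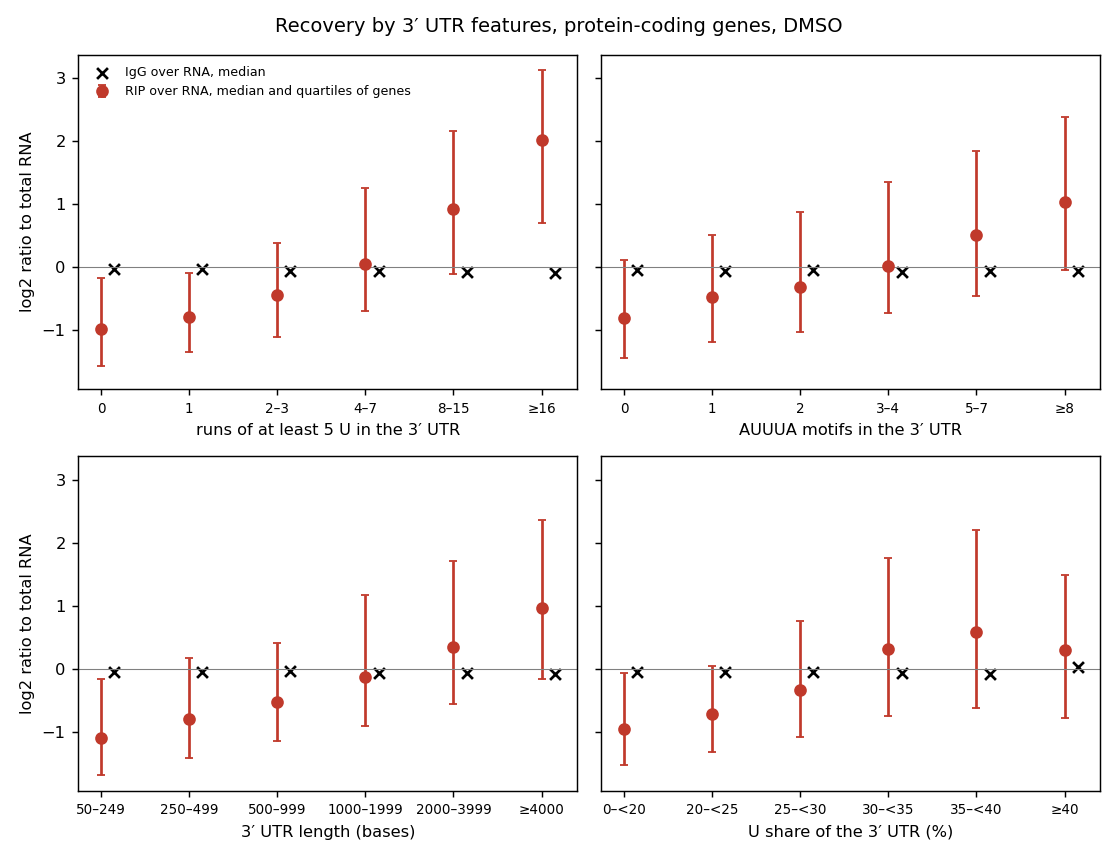
Median log2 RIP over total RNA of coding genes (red points, bars for the quartiles of genes) and median IgG ratio (crosses) by number of U runs, number of AUUUA motifs, length and U share of the 3′ UTR. Medians rise from left to right (from -0.98 to 2.02 for U runs, while for the U share the last class turns down to 0.30) and the crosses stay near 0.

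The same fit gave the RIP over total RNA comparison in the LPS libraries, which are different samples. In LPS 32.9% of all tested genes passed as higher and 30.8% as lower, and in LPS with TM7nox 35.2% and 34.8%. Of the 5300 genes higher in DMSO, 84.5% were also called higher in LPS and 88.1% in LPS with TM7nox, which made up 95.1% and 92.8% of the calls there; 7 and 9 were called lower. Of the 4775 lower genes, 84.0% and 91.0% were also lower, 91.1% and 87.3% of the calls there, and 2 and 4 were called higher. St3gal4 had log2 values of 6.26 in LPS and 6.58 with TM7nox beside 6.35 in DMSO, Elavl1 5.07 and 5.38 beside 5.00, Tnf -0.36 and 0.53 beside 3.58, and Hspa5 -2.22 and -2.42 beside -2.89. Differences of these ratios between treatments were not tested.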

How the data were processed

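Whole-number read counts per gene were deposited by the authors in 1 table; per the submitters' processing notes the tools were FastQC 0.11.9, STAR, HTSeq and DESeq2 and the build GRCm39, with the annotation release and the strand setting not given in the sources used here. Libraries were grouped by their treatment labels. Which comparison to describe, its members and the gene lists were chosen with earlier results of these data known; the labels then gave each library's group. Genes passing filterByExpr (minimum count 10) were fitted with edgeR 4.0.16 in R 4.3.3 (quasi-likelihood test, TMM scaling, two-sided, Benjamini-Hochberg over all 14311 genes), over the 24 RIP and total RNA libraries of all 3 treatments as 6 group means, so that they share 1 estimate of the spread. CPM, scaled by TMM factors over all 27 libraries, are means ± SD over 4 libraries; log2 IgG ratios add 0.5 CPM. Shares of counts were tested by exact permutation.

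Replicate numbers in the labels paired the samples: deviations from the group means of same-numbered RIP and total RNA libraries correlated at 0.21, 0.30, 0.23 and 0.29, each library best with its own number. Every pair of replicates differed by more than sampling noise. Alternatives were DESeq2 1.42.0, other scalings and filters, the 8 libraries alone, a replicate block, and leaving out libraries. On counts simulated from these libraries, 41.9% of 93 changes of 2-fold and 88.0% of 92 of 4-fold were recovered. There were 6 false calls among 13647 genes. All unchanged genes had equal means in RIP and total RNA, so scaling when most genes differ was not tested.

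Genes named were, by rule, the 12 most changed coding genes in each direction among those called, with a mean of at least 5 CPM, no overlap between RIP and total RNA libraries and no predicted symbol; the 10 coding genes with the largest RIP shares; the 2 highest and 2 lowest members of each of 50 lists with at least 5 CPM; the 3 genes of each transcript class with the largest share in RIP and in total RNA; and 8 set genes (Elavl1, Actb, Tnf, Zfp36, Fos, Myc, Malat1, Neat1). Other members named from small counts were chosen after their values were seen. 3′ UTRs came from 1 canonical GENCODE M39 transcript per gene. A few items that the rule names are not reported here.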

Additional observations from a re-analysis of the deposited data

Results flagged for a closer look

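In groups of 4 libraries, 1 value stood far from the other 3 by Dixon's test at 95% in 25 of 446 groups tested; chance alone gives about 1 in 20. Total RNA replicate 1 held Eno1 at 1535 CPM (672 to 704 in the others), Gapdh at 981 (619 to 654), Psma5 at 190.0 (87.2 to 96.3), Ubb at 351 (209 to 228), Cflar at 64.8 (50.9 to 51.2) and Mettl3 at 11.6 (8.13 to 8.62), and it was low for Mcm6 at 158 (192 to 197) and Prkra at 0.856 (6.42 to 7.06). Its share of counts in processed pseudogenes was 0.881% (0.528% to 0.578%). Total RNA replicate 2 was high for Malat1 at 1589 CPM (813 to 878) and Tspan5 at 21.9 (12.2 to 13.7), and low for Hspa5 at 865 (1064 to 1090) and Virma at 39.7 (43.4 to 44.1). Total RNA replicate 4 was low for Ier2 at 23.1 CPM (27.8 to 28.7), and its miRNA share without Gm23935 was 0.119% (0.0305% to 0.0445%).

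Among RIP libraries, replicate 1 was high for Lyz2 at 1153 CPM (681 to 746) and Tap1 at 7.90 (4.46 to 4.88), and low for Snhg1 at 33.2 (38.0 to 38.7). RIP replicate 2 was low for Ubb at 41.0 CPM (56.8 to 59.6) and high in the shares of counts in TEC genes, 0.215% (0.111% to 0.119%), and other pseudogenes, 0.170% (0.0897% to 0.102%). RIP replicate 3 was high for Ptma at 11006 CPM (8930 to 8994). RIP replicate 4 was high for Pabpn1 at 335 CPM (58.3 to 103), Frat1 at 30.0 (14.7 to 17.1) and the misc_RNA and ribozyme share, 0.0940% (0.0603% to 0.0646%).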

How the results depend on the processing

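Scaling moved the balance of calls most. Of the calls, 52.6% were higher in RIP; the share was 34.7% with library size only (3776 higher, 7113 lower), 57.1% with DESeq2 size factors, 56.8% with DESeq2 and 48.7% without mitochondrially encoded genes. Relative to TMM, the median of all genes shifted by -0.76 with library size only and by 0.16, 0.15 and -0.13 with the other 3. With library size only, 5969 genes were lower by at least 2-fold against 3185, 13 of 50 list medians fell below 0 with the median of all genes, and so did Zfp36 (-0.0949), Macroh2a1 (-0.17), Mapre1 (-0.29), Mrpl51 (-0.20), Mrps10 (-0.31), Nlrc5 (-0.0658) and Suclg2 (-0.0779). The pairing by replicate number, fitted as a replicate block, gave 5577 higher and 5142 lower and changed no call of a named gene. Counts were 4671 and 4823 from the 8 DMSO libraries alone, 4081 and 3351 from replicates 1 and 2, 5021 and 4970 from replicates 3 and 4, and 5768 and 5422 without a filter; leaving out 1 library gave 5064 to 5384 higher and 4504 to 5045 lower. Without mitochondrially encoded genes the differences in share of counts (RIP minus total RNA, percentage points) of lncRNA (0.0949) and protein-coding genes (5.99) no longer passed. Leaving out 1 library moved that of lncRNA from 0.111 to 0.239 and miRNA from -4.32 to -1.47. It moved other pseudogenes from -0.0224 to 0.00453 and immunoglobulin and T cell receptor segments from -0.000344 to -0.000167. Each changed its call by the exact permutation test without adjustment over classes. Without total RNA replicate 1, the shallowest, medians minus that of all genes moved to -0.25 for protein-coding genes, 0.15 for Zfp-named genes, 2.02 for other cell type markers and 1.36 for reported HuR targets. With replicates 1 and 2 only, the calls of Dusp2, Dynll1, H1f0, H2ax, H2az2, H3f3a, Hnrnpa2b1, Hnrnpll, Irf5, Macroh2a1, Map2k4, Mapre1, Mettl3, Mrpl32, Mrps10, Ndufb2, Prkra, Rpl37a, Rsad2, Snhg5, Ybx1, Zfp36, mt-Nd2 and mt-Nd6 did not pass, and with replicates 3 and 4 only those of Mrps10, Nlrc5, Rpl37a, Ybx1 and mt-Nd2 did not. Dars was called without TMM factors and without mitochondrially encoded genes. Rpl10a, H3f3b and mt-Nd5 were called lower without TMM factors, and mt-Nd5 higher from replicates 3 and 4. The causes were not tested. Genes of a few counts per library, and the single IgG library, limit precision.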
